A study of Drosophila melanogaster with 4 samples.

Results

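The 10 genes described here form the core of the Hedgehog pathway, from the ligand and its release to its receptor complex, its cytoplasmic complex and its transcription factor. They were taken by name (hh, ptc, smo, ci, fu, Su(fu), cos, ihog, boi and disp) from a table of 17559 genes, and all 10 were found, passed the filter on low values and were tested. Their transcripts were measured by RNA sequencing in wing imaginal discs, the larval epithelial sacs of Drosophila melanogaster that give rise to the adult wing and dorsal thorax. The animals were larvae at the third instar, in 2 groups with 2 libraries each, y w controls (named for mutations in yellow, a pigmentation gene, and white, an eye colour gene) and Paip1 mutants. The labels state neither the Paip1 allele nor whether the mutants carry the y w background, so strain and mutation cannot be told apart, and they do not say that replicates came from separate larvae, so p-values measure only library-to-library spread, possibly technical.

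Hedgehog is a secreted, lipid-modified protein that cells of the posterior compartment of the disc make and release towards the anterior compartment. Where it is absent, its receptor Patched holds Smoothened inactive, and the zinc finger protein Cubitus interruptus (Ci) is cut into a repressor. Where Hedgehog binds Patched, Smoothened is freed and full-length Ci turns on target genes in anterior cells along the compartment boundary, among them ptc itself. Another is dpp, whose product organizes wing growth and pattern.

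In the mutant discs the co-receptor gene ihog and the transcription factor gene ci fell most among the 10, to 0.443 and 0.569 of their control level. The ligand gene hh, the transducer gene smo and the complex genes fu and cos fell too, to between 0.651 and 0.757 of the control level, while the ligand release gene disp rose to 1.94 of it. The receptor gene ptc, the inhibitor gene Su(fu) and the second co-receptor gene boi did not pass the test. In counts, 6 of 10 were lower, 1 was higher and 3 did not pass (limma on log2(TPM + 1), Benjamini-Hochberg adjusted p under 0.05 over 8605 tested genes). Over all tested genes the same test called 44.8%, with 29.1% lower and 15.6% higher, and the median log2 fold change was -0.22, against -0.44 for the 10. Relative to that median, ihog, ci and fu remained lower and disp higher when libraries were rescaled by median ratios, which leaves 3 of 10 lower and 1 higher, beside 17.1% lower and 21.7% higher of all tested genes. hh, smo and cos were not called under that scaling, as given with each gene.

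**Figure D1:**
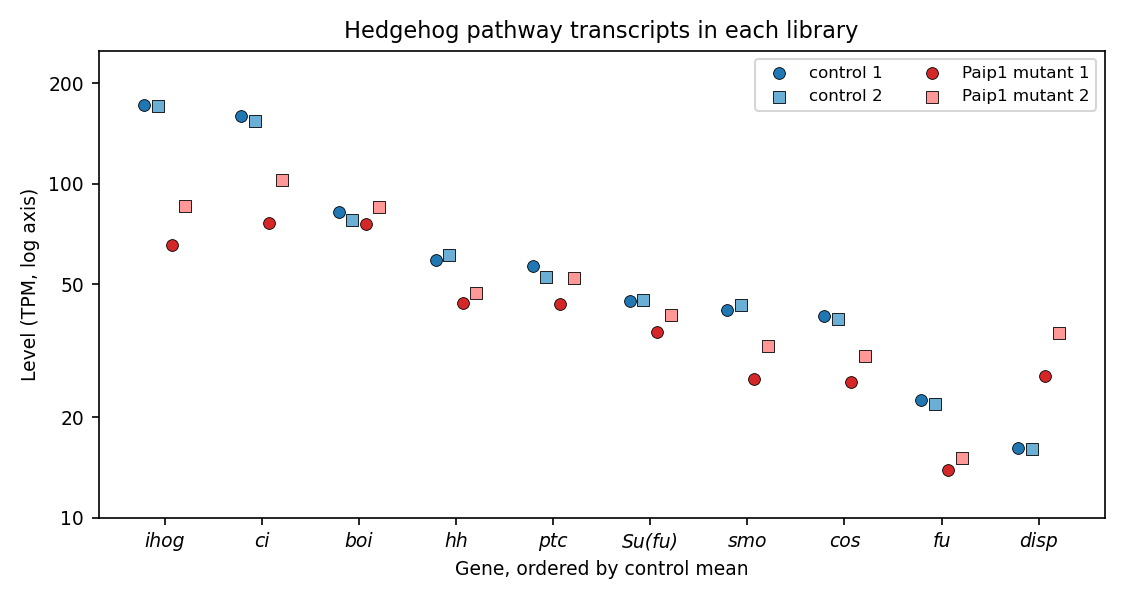
Level of the 10 genes in TPM on a log axis, 1 point per library, with control libraries in blue and Paip1 mutant libraries in red, ordered by control mean. Both mutant points lie below both control points for 8 of the 10 genes, beside 52.8% of all tested genes. They lie above the control points for disp and on either side of them for boi.

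The deposited values carry no unit and were read, from their sums, as TPM, a length-corrected share of a library's transcripts. TPM allows levels of different genes to be set side by side, and a few very abundant transcripts lower all others. The listed values summed to between 995750 and 996531 TPM in the control libraries and between 919460 and 936038 TPM in the mutant libraries, and depth is unknown. The targeted transcript, Paip1, was at 112 and 121 TPM in the control libraries against 2.37 and 2.22 TPM in the mutant libraries (log2 fold change -5.16, adjusted p = 3.54e-05). Of 8 markers of the disc epithelium 7 were lower in the mutant. Beside this and the marker counts below stand 29.1% lower and 15.6% higher of all tested genes. The 8 summed to 926.4 to 953.8 TPM in control and 455.9 to 559.5 TPM in mutant libraries. Among the 7 were sd (log2 fold change -0.91, limma adjusted p = 0.0115) and hth (-1.08, 0.0175). Neither call held without control replicate 1 (adjusted p = 0.0833 and 0.1) or 2 (0.0839 and 0.0967). Of 6 markers of adult muscle precursors 5 were lower, with sums of 121.6 to 136.4 TPM against 48.95 to 66.26 TPM, including Nrt and Mef2 (log2 fold changes -0.81 and -0.71), whose calls did not hold without either control library or without mutant replicate 1 (adjusted p = 0.0706 to 0.152). All 6 markers of differentiated muscle were higher, with sums of 171.7 to 184.2 TPM against 15410 to 15460 TPM, nearly all from sls at 15295 and 15303 TPM in the mutant libraries, with Act57B next. Hemocyte markers summed to 1.68 to 8.97 TPM in control and 19.1 to 28.3 TPM in mutant libraries. Of 5 tested 3 were higher, among them Pxn. Pxn and He had the highest means, and He did not pass (limma adjusted p = 0.225). Tracheal markers (1 of 6 higher, verm, and 4 lower, among them vvl) summed to 575.8 to 597.9 and 616.1 to 702.8 TPM. Most of that sum was verm, at 361.85 and 378.66 TPM in control and 512.06 and 555.89 TPM in mutant libraries, so its rise does not describe the other markers. Neuronal markers (1 of 3 tested higher, para, and 1 lower, elav) summed to 25.7 to 27.6 and 26.9 to 40.6 TPM, with nSyb and brp under 1 TPM in every library, and fat body markers (Fbp1 and Lsp2 the most abundant, 1 of 6 higher and 2 lower) to 498.5 to 1411 and 45.8 to 290.9 TPM. Salivary gland markers, Sgs7 and Sgs8 above all, summed to 3581 TPM in control replicate 1 and to at most 2.87 TPM in the other libraries, with 0 of 2 tested called. The calls of Pxn, verm, vvl, para, elav and Fbp1 were each lost without at least 1 library (adjusted p = 0.0501 to 0.197). With median-ratio scaling Mef2, vvl and elav did not pass (limma adjusted p = 0.053, 0.0501 and 0.0799). The calls of sd, hth, Nrt, Pxn, verm, para and Fbp1 held under that scaling. In bulk discs fewer cells of a kind and less RNA per cell cannot be told apart. The part of these marker shifts in the changes below was not tested.

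The ligand gene hh (FBgn0004644, chromosome 3R, 23128169 to 23141906, minus strand, dm6) stood at 59.13 and 61.17 TPM in the first and second control library and at 43.81 and 47.24 TPM in the first and second mutant library, the order kept for every gene here. Both mutant libraries were lower than both controls, by more than either pair differed within itself. The mean went to 45.53 ± 2.43 TPM in mutant from 60.15 ± 1.44 TPM in control discs (± SD, n = 2, as for all means given), a log2 fold change of -0.395 with an SE of 0.11 and an adjusted p of 0.0353. Set against the median of all tested genes the difference was -0.175, and with median-ratio scaling it was -0.17 and did not pass (adjusted p = 0.164). The genes en and inv, which encode the posterior selector factors that turn hh on, fell as well, en to 31.4 ± 6.89 TPM in mutant from 64.2 ± 11.8 TPM in control discs (log2 fold change -1.01, adjusted p = 0.0153) and inv to 40.1 ± 0.212 TPM in mutant from 71.4 ± 1.92 TPM in control discs (log2 fold change -0.82, adjusted p = 0.00448). The difference between hh and these genes was not tested. The calls of en and inv did not hold without control replicate 1 (adjusted p = 0.0556 and 0.0629) or 2 (0.104 and 0.0548), nor that of en without mutant replicate 1 (0.0886).

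disp (FBgn0029088, chromosome 3R, 5849697 to 5856311, minus strand) encodes a membrane protein that lets producing cells release the lipid-modified ligand. It was the lowest of the 10 in the control libraries, at 16.14 and 16.08 TPM, and reached 26.57 and 35.84 TPM in the mutant libraries. Both mutant libraries were clearly above the controls, and they differed from each other more than the controls did. The mean rose to 31.2 ± 6.56 TPM in mutant from 16.1 ± 0.0424 TPM in control discs (log2 fold change 0.90, SE 0.17, adjusted p = 0.0125), and with median-ratio scaling the log2 fold change was 1.12 (adjusted p = 0.00389). It passed the test under all 3 scalings, but not without control replicate 1 (adjusted p = 0.086) or 2 (0.0891).

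The receptor gene ptc (FBgn0003892, chromosome 2R, 8649649 to 8665223, plus strand), at once the receptor for Hedgehog and a target of its signal, stood at 56.85 and 52.57 TPM in control and 43.71 and 52.29 TPM in mutant libraries. Mutant replicate 2 was nearly level with control replicate 2, and only mutant replicate 1 stood clearly lower. The means were 54.7 ± 3.03 and 48.0 ± 6.07 TPM, with a log2 fold change of -0.19, a 95% interval of -0.53 to 0.15 and an adjusted p of 0.283. With median-ratio scaling the estimate was 0.04 (interval -0.23 to 0.30, adjusted p = 0.799), so its sign depended on the scaling. The interval leaves room for a fall of about the size seen for smo and does not show that ptc was the same in both groups.

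ihog and boi encode related membrane proteins with immunoglobulin and fibronectin type III domains that bind Hedgehog and serve as co-receptors of Patched, with overlapping roles. ihog (FBgn0031872, chromosome 2L, 6945464 to 6948808, minus strand) had the highest level of the 10 in the control libraries, at 171.49 and 170.77 TPM, and stood at 65.77 and 85.67 TPM in the mutant libraries. The gap between the groups was several times the gap between the mutant libraries. Its mean fell to 75.7 ± 14.1 TPM in mutant from 171 ± 0.509 TPM in control discs (log2 fold change -1.18, SE 0.15, adjusted p = 0.00475). With median-ratio scaling the log2 fold change was -0.95 (adjusted p = 0.00381), and without control replicate 1 the adjusted p was 0.0501.

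boi (FBgn0040388, chromosome X, 2444167 to 2470043, minus strand) stood at 82.12 and 78.13 TPM in control and 75.7 and 85.09 TPM in mutant libraries. It was the only one of the 10 whose groups overlapped, the mutant libraries lying on either side of the controls. The log2 fold change was 0.003, with a 95% interval of -0.29 to 0.29 and an adjusted p of 0.986. With median-ratio scaling the estimate was 0.23 (interval 0.01 to 0.46, adjusted p = 0.0946), and without control replicate 2 or mutant replicate 2 its sign turned (-0.03 and -0.08). Within each library ihog made up 67.6% and 68.6% of the summed ihog and boi levels in control and 46.5% and 50.2% in mutant discs. The ratio of ihog to boi thus went from 2.09 and 2.19 to 0.869 and 1.01, a log2 difference of -1.19 with a pooled replicate SD of 0.11, which no scaling between libraries can change.

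**Figure D2:**
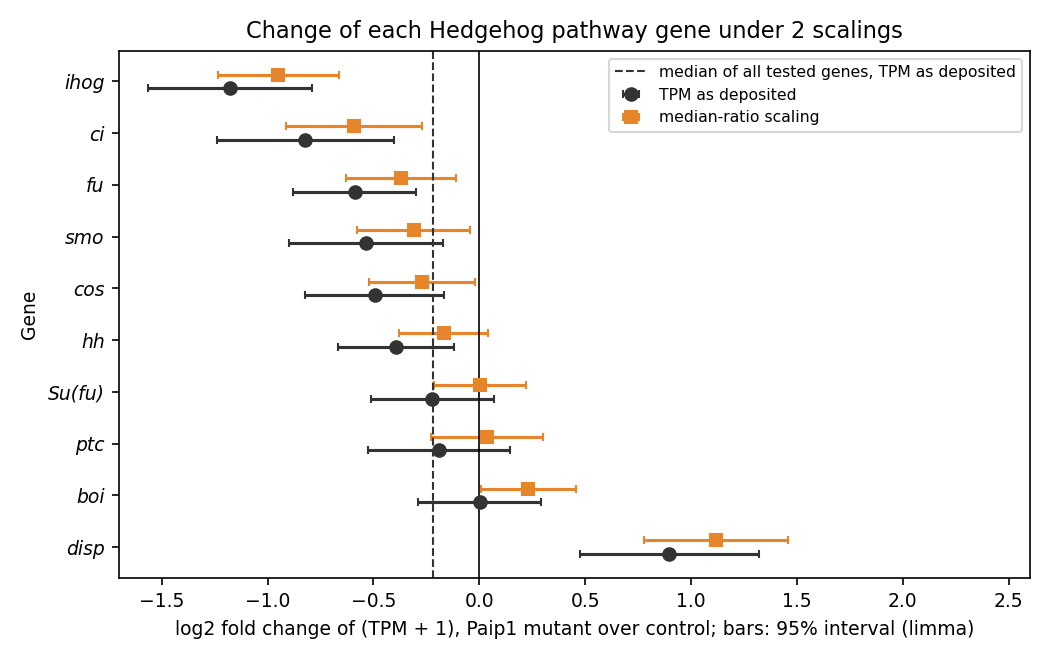
Log2 fold change of (TPM + 1) for each gene, Paip1 mutant over control, with 95% intervals from limma, for TPM as deposited (black circles) and after median-ratio scaling (orange squares). The dashed line marks the median of all tested genes at -0.22. The rescaled estimates lie to the right of the deposited ones for every gene, and the intervals of ihog, ci, fu, smo and cos lie below 0 and that of disp above 0 under both, although the adjusted p of smo and cos misses the threshold after rescaling.

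smo (FBgn0003444, chromosome 2L, 277582 to 282167, plus strand) encodes the G protein-coupled receptor family protein that carries the signal into the cell. It stood at 41.79 and 43.43 TPM in control and 25.97 and 32.58 TPM in mutant libraries, with both mutant values below both controls. The mean fell to 29.3 ± 4.67 TPM in mutant from 42.6 ± 1.16 TPM in control discs (log2 fold change -0.535, SE 0.14, adjusted p = 0.0332), and with median-ratio scaling the log2 fold change was -0.31 and did not pass (adjusted p = 0.0709). Exons of smo share 498 bases with CG11601 and 587 bases with CG17078 on the opposite strand, which is 12.4% and 14.6% of its exonic length. These genes stood at 14.4 ± 0.764 and 61.5 ± 0.757 TPM in control and 8.96 ± 0.304 and 46.0 ± 7.49 TPM in mutant discs (log2 fold changes -0.63 and -0.42, adjusted p = 0.0142 and 0.0634). Whether strand was used in counting is not given in the sources used here, so how reads from the shared bases were divided is unknown.

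The ratio of ptc to smo within a library was 1.36 and 1.21 in control and 1.68 and 1.60 in mutant discs, a log2 difference of 0.36 with a pooled replicate SD of 0.09. Both mutant ratios were above both control ratios. ptc relative to ihog went from 0.332 and 0.308 to 0.665 and 0.61, a log2 difference of 0.995 with a pooled SD of 0.08. These ratios were given no test, since an exact permutation test of 2 against 2 libraries cannot go below p = 0.333. As untested values they describe the pairs in these libraries and do not show which gene moved. For ptc to smo, the bases that smo shares with CG11601 and CG17078 are a further limit.

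**Figure D3:**
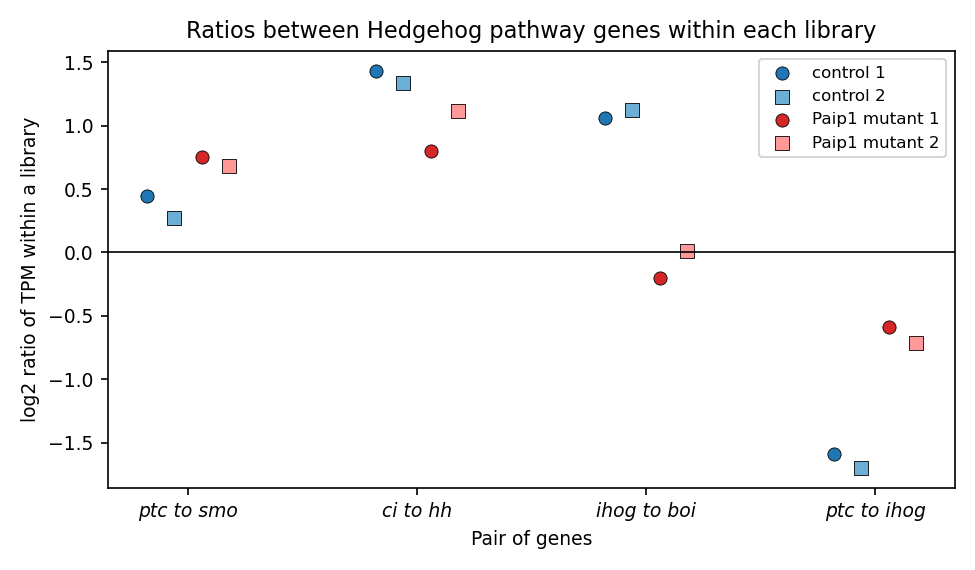
Log2 ratio of the TPM of a gene pair within each library, 1 point per library, for ptc to smo, ci to hh, ihog to boi and ptc to ihog. The control and mutant points do not overlap for any pair, and for ihog to boi they lie near 1.1 in control and between -0.20 and 0.01 in mutant libraries.

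Inside the cell, Smoothened acts on a complex of Costal, Fused and Suppressor of fused that holds Ci in the cytoplasm. cos (FBgn0000352, chromosome 2R, 7382176 to 7387115, minus strand), which encodes the kinesin-like scaffold of the complex, stood at 40.16 and 39.36 TPM in control and 25.57 and 30.55 TPM in mutant libraries. Both mutant libraries were lower, the first further than the second. The mean fell to 28.1 ± 3.52 TPM in mutant from 39.8 ± 0.566 TPM in control discs (log2 fold change -0.49, SE 0.13, adjusted p = 0.0313), and with median-ratio scaling the log2 fold change was -0.27 (adjusted p = 0.0849).

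fu (FBgn0001079, chromosome X, 18657755 to 18661204, plus strand) encodes the serine-threonine kinase of the complex, which promotes Ci activation. It stood at 22.6 and 21.95 TPM in control and 13.9 and 15.09 TPM in mutant libraries, with both groups tight and well apart. The mean fell to 14.5 ± 0.842 TPM in mutant from 22.3 ± 0.46 TPM in control discs (log2 fold change -0.59, SE 0.12, adjusted p = 0.0141), and it was called with median-ratio scaling (log2 fold change -0.37, adjusted p = 0.0413).

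Su(fu) (FBgn0005355, chromosome 3R, 12689873 to 12691468, minus strand), which encodes the inhibitor that binds Ci, stood at 44.43 and 44.95 TPM in control and 36.11 and 40.43 TPM in mutant libraries. The groups did not overlap, but the log2 fold change lay within 0.001 of the median of all tested genes. The means were 44.7 ± 0.368 and 38.3 ± 3.06 TPM, with a log2 fold change of -0.22, a 95% interval of -0.51 to 0.07 and an adjusted p of 0.166. With median-ratio scaling the estimate was 0.005 (interval -0.21 to 0.22, adjusted p = 0.968), so its sign too depended on the scaling. Of the 10 genes 8 had both mutant libraries below both controls, ptc and Su(fu) included, beside 52.8% of all tested genes.

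ci (FBgn0004859, chromosome 4, 47710 to 57041, minus strand) encodes the transcription factor and is transcribed in anterior cells, where the products of en and inv do not repress it. It stood at 159.84 and 154.21 TPM in control and 76.25 and 102.55 TPM in mutant libraries. Both mutant libraries were far below the controls, and they differed from each other more than those of any other of the 10 genes did in TPM. The mean fell to 89.4 ± 18.6 TPM in mutant from 157 ± 3.98 TPM in control discs (log2 fold change -0.82, SE 0.16, adjusted p = 0.015), and with median-ratio scaling by 0.59 on the log2 scale (adjusted p = 0.0198). The ratio of ci to hh was 2.70 and 2.52 in control and 1.74 and 2.17 in mutant libraries, a log2 difference of -0.425 with a pooled SD of 0.17.

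The order of the levels changed. In control discs every gene stood above the next in both libraries, in the order ihog, ci, boi, hh, ptc, Su(fu), smo, cos, fu and disp. In mutant discs the order by mean was ci, boi, ihog, ptc, hh, Su(fu), disp, smo, cos and fu. There the libraries of ci overlapped those of boi, as did boi with ihog, ptc with hh, disp with smo and smo with cos. Ranked among the tested genes of its own library, a measure that does not depend on scaling, ihog went from percentiles 92.2 and 92.0 to 81.0 and 84.3. disp went from 35.6 and 34.9 to 55.3 and 62.3, and fu from 45.2 and 43.6 to 35.3 and 35.6. Su(fu) stayed between 65.1 and 66.4 in all 4 libraries. Mutant replicate 2 had the higher value of the mutant pair for all 10 genes, by 1.08 to 1.35 times with a median of 1.20, beside a median of 1.10 over all tested genes, of which 68.5% were higher there. In the control pair replicate 2 was higher for 3 of 10 (0.925 to 1.04 times), beside 55.3% of all tested genes, whose median was 1.02.

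**Figure D4:**
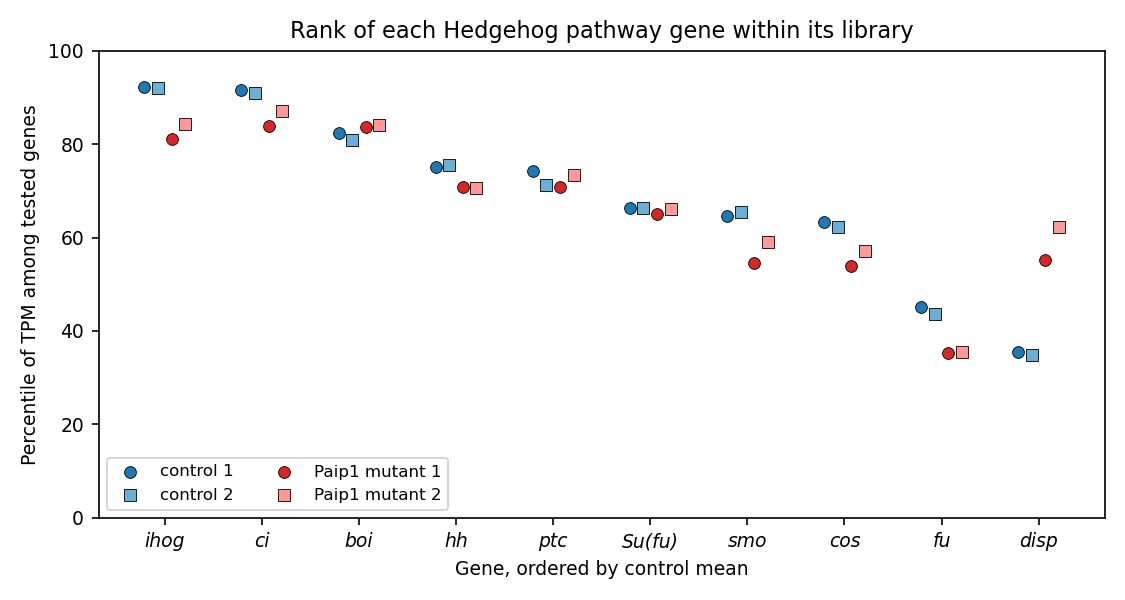
Percentile of each gene's TPM among the tested genes of the same library, 1 point per library, with control in blue and Paip1 mutant in red. ihog and ci drop from above 90 in control to between 81.0 and 87.1 in the mutant, disp climbs from about 35 to between 55.3 and 62.3, and Su(fu) stays near 66.

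Leaving out a control library leaves that group with 1 library, assumed to vary like the mutant pair, and 1 residual degree of freedom. The log2 fold changes of the 7 called genes then moved by at most 0.027, while their SE grew to between 1.51 and 1.73 times. In that setting none of the 7 passed without control replicate 1 (limma adjusted p from 0.0501 for ihog to 0.182 for hh), and calls over all tested genes went from 3852 to 1013. Without control replicate 2 ihog passed (adjusted p = 0.0474) and the other 6 did not (0.0891 to 0.229). Without mutant replicate 1, with log2 fold changes shifted by 0.053 to 0.211, ihog, ci and disp were called (adjusted p = 0.0267 to 0.0397), and hh, smo, fu and cos were not (0.0604 to 0.0827). Without mutant replicate 2 the log2 fold changes of the 7 moved by 0.053 to 0.211. Leaving out a mutant library leaves 1 in that group, assumed to vary like the control pair. The SE of the 7 then shrank, to between 0.477 and 0.91 times without mutant replicate 1 and between 0.477 and 0.917 times without replicate 2. A call in these settings takes no account of the spread between mutant libraries. In the authors' deposited table, whose comparison has a median log2 fold change of 0.18 over its tested genes, the log2 fold changes were -1.01 for ihog, -0.65 for ci, -0.45 for fu, -0.38 for smo, -0.34 for cos, -0.23 for hh, -0.05 for Su(fu), -0.02 for ptc, 0.11 for boi and 1.12 for disp. Its adjusted p was 2.91e-13 for ihog, 1.26e-11 for disp and 2.21e-05 for ci, 0.00682 for fu, 0.0167 for smo and 0.0205 for cos, and 0.114 for hh.

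Beyond the 10, 3 lists with 41 further genes of the pathway were measured in the same fit, all of them tested, and 21 were lower and 2 higher, beside 29.1% lower and 15.6% higher of all tested genes. Of 10 target genes and Ci cofactors 8 fell and 0 rose (median log2 fold change -0.845, against -0.22 over all tested genes). The 8 include en and inv, given above as genes whose products turn hh on, so the count is not one of Hedgehog targets alone. The Iroquois genes caup and ara, which Hedgehog signalling helps to turn on where a wing vein forms and which also act in the notum, fell most. caup stood at 73.5 and 68.84 TPM in control and 10.96 and 18.27 TPM in mutant libraries (log2 fold change -2.25, SE 0.24, adjusted p = 0.00261). ara stood at 66.85 and 70.2 TPM and at 10.62 and 18.07 TPM (log2 fold change -2.22, adjusted p = 0.00294). The transcription factor gene kn, which Hedgehog turns on beside the boundary, stood at 17.64 and 15.03 TPM and at 2.4 and 4.03 TPM (log2 fold change -2.06, adjusted p = 0.00296). All 3 were called without any single library and under every scaling.

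dpp, the BMP ligand gene and the classic Hedgehog target of the disc, did not fall with them. It stood at 33.41 and 35.95 TPM in control and 35.74 and 38.39 TPM in mutant libraries, and the groups overlapped. Its log2 fold change was 0.09 (95% interval -0.19 to 0.38, adjusted p = 0.526), and with median-ratio scaling it passed as higher (0.32, adjusted p = 0.0417). sbb, also called master of thickveins, through which Hedgehog lowers the level of the Dpp receptor, fell to 42.2 ± 9.6 TPM in mutant from 77.2 ± 2.72 TPM in control discs (log2 fold change -0.87, adjusted p = 0.0151, but 0.102 and 0.0922 without the first and the second control library). hyx, whose product binds Ci, fell to 46.4 ± 0.0495 TPM in mutant from 65.2 ± 1.38 TPM in control discs (log2 fold change -0.48, adjusted p = 0.0178, with 0.0799 under median-ratio scaling, 0.129 and 0.154 without control replicates 1 and 2 and 0.053 without mutant replicate 1). Under median-ratio scaling 7 of the 10 were lower and 2 higher (17.1% and 21.7% of all tested genes), the second being vn, an EGFR ligand gene named after its value was seen. Counts without control replicates 1 and 2 and mutant replicate 1 were 3, 3 and 5 lower.

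Genes that mature and move the ligand went both ways, with 3 of 9 lower and 2 higher, shares near the 29.1% lower and 15.6% higher of all tested genes (median log2 fold change -0.38). The glypican genes dally and dlp, which encode heparan sulfate proteoglycans that hold and hand on Hedgehog at the cell surface, rose. dally stood at 126.71 and 121.7 TPM in control and 171.63 and 206.39 TPM in mutant libraries (log2 fold change 0.60, adjusted p = 0.0186). dlp stood at 71.72 and 62.44 TPM and at 113.06 and 128.71 TPM (log2 fold change 0.84, adjusted p = 0.00772). Both mutant libraries were above both controls for each. shf, the secreted factor that helps Hedgehog spread through the matrix, moved the other way, from 119.97 and 119.62 TPM to 51.71 and 64.26 TPM (log2 fold change -1.04, adjusted p = 0.00508). ttv, a heparan sulfate polymerase gene, fell to 13.9 ± 1.66 TPM in mutant from 24.7 ± 1.37 TPM in control discs (log2 fold change -0.79, adjusted p = 0.00982). rasp, whose product attaches palmitate to Hedgehog, was at 34.0 ± 2.23 and 25.8 ± 1.79 TPM, passed barely (log2 fold change -0.38, adjusted p = 0.0495) and was not called under either rescaling (0.382 and 0.113). Without control replicates 1 and 2 the adjusted p was 0.112 and 0.135 for dally, 0.0524 and 0.0779 for dlp, 0.0547 and 0.0527 for shf, and 0.0894 and 0.0714 for ttv, which also missed without mutant replicate 1 (0.0522). rasp missed without any single library (0.084 to 0.278).

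Among 22 genes for kinases, phosphatases and protein turnover that act on Smoothened and Ci, 10 fell and 0 rose, beside 29.1% lower and 15.6% higher of all tested genes (median log2 fold change -0.30, against -0.22), so the share called in either direction was close to the 44.8% called overall. Protein kinase A marks Ci for processing and also phosphorylates Smoothened, and the 3 subunit genes on the list fell. The regulatory subunit gene Pka-R2 stood at 15.72 and 16.23 TPM in control and 6.43 and 7.26 TPM in mutant libraries (log2 fold change -1.12, SE 0.13, adjusted p = 0.00346), and was called without any single library. Pka-R1, also a regulatory subunit gene, fell to 24.1 ± 1.03 TPM in mutant from 39.4 ± 1.2 TPM in control discs (log2 fold change -0.685, adjusted p = 0.00827). The catalytic subunit gene Pka-C1 fell to 21.8 ± 4.19 TPM in mutant from 36.5 ± 0.0424 TPM in control discs (log2 fold change -0.73, adjusted p = 0.0182). The casein kinase gene dco, the arrestin gene krz and the ubiquitin ligase subunit gene SkpA fell as well (log2 fold changes -0.61, -0.76 and -0.63; adjusted p = 0.0148, 0.0114 and 0.0135). mts, the catalytic subunit gene of protein phosphatase 2A, was at 446.8 ± 57 and 368 ± 78.7 TPM and did not pass (adjusted p = 0.243). Apart from Pka-R2 these calls were lost without control replicate 1 or 2 (adjusted p = 0.0614 to 0.12), and those of Pka-C1, dco, krz and SkpA without mutant replicate 1 (0.0503 to 0.066). The 10 lower genes became 1, 1 and 2 without control replicates 1 and 2 and mutant replicate 1. With median-ratio scaling 6 were lower and 2 higher, beside 17.1% and 21.7% of all tested genes, the higher ones being sgg and Gprk2 (kinase genes named after their values were seen; log2 fold changes 0.47 and 0.37, adjusted p = 0.0461 and 0.035).

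**Figure D5:**
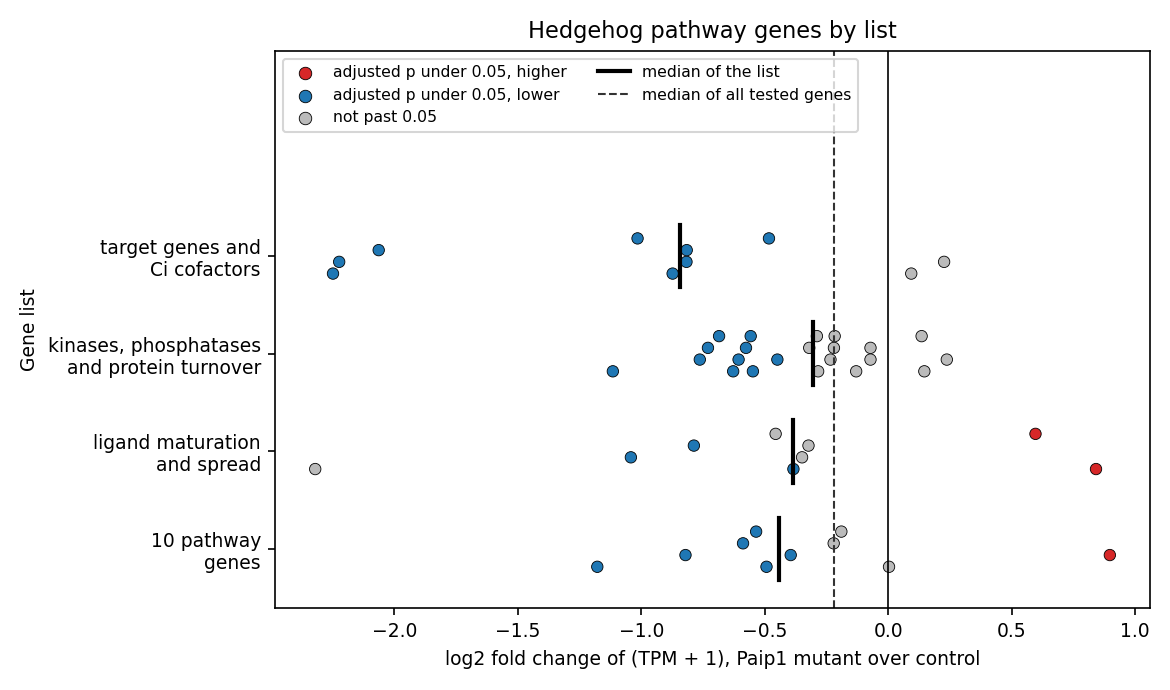
Log2 fold change of (TPM + 1), Paip1 mutant over control, for the 10 pathway genes and the 3 lists of further pathway genes, 1 point per gene. Blue and red points passed the test as lower and higher, grey points did not, black bars mark list medians and the dashed line the median of all tested genes at -0.22. The leftmost point is apolpp of the ligand list at -2.32, which did not pass (limma adjusted p = 0.0507). Its control libraries differed widely, at 17.32 and 2.83 TPM, against 0.94 and 0.45 TPM in mutant libraries. Next come the target genes caup, ara and kn, and red points are seen for disp and for dally and dlp.

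The tested genes nearest in profile were found by the Euclidean distance of centred log2(TPM + 1) over the 4 libraries, among 4951 named genes whose mean reached 5 TPM. Nearest to hh were gem (distance 0.0135), kin17 (0.0217) and Nup44A (0.0247). Nearest to ptc were Ubr1 (0.0132), Axud1 (0.0191) and Rme-8 (0.0264), and nearest to ci were par-6 (0.00823), htl (0.026) and ago (0.0467). With 4 libraries in 2 groups, such a distance mostly reads a similar fold change, as for par-6 at 48.87 and 47.27 TPM in control and 23.01 and 31.36 TPM in mutant libraries.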

How the data were processed

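RNA extracted with Trizol was sequenced on an Illumina HiSeq, per the labels. Per the submitters' processing notes, FastQC, TopHat, RSEM and DESeq were used with dm6, and no version or role is named there. The values the authors deposited per gene and library carry no unit in the header and were read as TPM from their sums. The authors' deposited table also holds a fold change (ratio), its log2 value, and p-values with adjusted p-values, per the file headers. TPM keeps no depth, so no counting interval was given.

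Differences were tested on log2(TPM + 1) by limma 3.58.1 (R 4.3.3), using a mean-variance trend (2 residual and 3.27 prior degrees of freedom), two-sided, over the 8605 genes that reached 1 TPM in 2 or more libraries, and p was Benjamini-Hochberg adjusted across all of them. The pseudocount of 1 understates the change of low genes. No libraries held identical values. Coordinates are from Ensembl 115 annotation in dm6. The design foresaw a count model for counts and this model for normalized values. The 10 genes, the lists and the rule for named genes (up to 6 called genes and the 2 most abundant of each pathway list, the 2 most abundant of each marker list) were chosen with earlier results of these data known. Alternatives changed the pseudocount, filter, scaling, trend, libraries and replicate block. Python 3.11.15, pandas 2.3.3 and matplotlib 3.10.9 made summaries and figures.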

Additional observations from a re-analysis of the deposited data

How the results depend on the processing

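Under median-ratio scaling 1469 of all tested genes were lower in place of 2506, and 3 in place of 6 of the Hedgehog genes, as also under scaling to a common sum. For ptc the log2 fold change became 0.037 and for Su(fu) 0.005 under median-ratio scaling. That scaling gave 6 lower and 2 higher genes of kinases, phosphatases and protein turnover, and 2 higher target genes and cofactors. With no filter on low values 4 of the 10 genes were lower. Leaving out 1 library at a time gave 607 to 1089 higher and 406 to 2184 lower over all genes. Of the Hedgehog genes 0 to 6 were then lower and 0 to 1 higher, of the ligand list 0 to 3 lower and 0 to 2 higher, of the kinase list 1 to 10 lower and of the target list 3 to 8 lower. The log2 fold change of boi then ran from -0.08 to 0.086, and that of the salivary gland gene Sgs8 from -8.475 to 0.976. The differences in log2 ratio between the groups kept their sign in every such setting. That outcome was fixed beforehand, since control and mutant ratios did not overlap for any pair. The labels do not say that replicate numbers pair libraries, and deviations of same-numbered libraries correlated at r = 0.0648 over genes. With the replicate block 5 of the ligand list were lower in place of 3, and the Hedgehog genes again numbered 6 lower and 1 higher. The causes of these shifts were not tested. With 2 libraries a group, precision rests on replicate spread, and depth is unknown.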
